A study of Mus musculus with 2 samples.

Results

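The FOXO transcription factor genes Foxo1, Foxo3 and Foxo4 and 5 genes whose products restrain PI3K signalling or its downstream arms, Inpp5d, Tsc1, Tsc2, Pik3ip1 and Txnip, were examined in haematopoietic stem cells (HSCs), the cells that maintain all blood lineages. These 8 genes were taken by name out of 28009 genes with a linked transcript, with earlier results of these data known. All 8 were among the 12220 genes called expressed, meaning at 1 FPKM or more in either column of the transcript table. FPKM counts sequenced fragments per kilobase of transcript and per total of mapped fragments, so levels of different genes are on one scale per length. The study asked how fetal and adult HSCs differ in genome organisation, and its expression arm sequenced polyadenylated RNA. Adult HSCs (2 samples) were taken from the bone marrow of mice of strain B6129SF1 at an age of 6 to 8 weeks. HSCs from fetal liver at embryonic day 14.5 are named in the labels' protocol, with no strain stated. No treatment or transgene is named for either group. How the cells were gated and how many animals went into a library is not given in sources used here.

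Growth factor receptors such as Kit activate PI3K, which makes the membrane lipid PIP3 and thereby turns on the kinase AKT. AKT phosphorylates FOXO factors, which then leave the nucleus, and it inhibits the TSC1-TSC2 complex, which otherwise keeps the growth kinase mTOR off. In mice, loss of FOXO factors or of Tsc1 is known to push HSCs out of quiescence and to exhaust them, so these genes are often described as brakes on stem cell proliferation.

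Values were deposited as 1 number per column, in a gene table and a transcript table that each hold 1 column headed FL and another headed BM. There is no replicate value, so no error, n or test is attached to any level, and "higher" or "lower" describes columns only. The headers did not match across the tables. For 79.4% of the 11077 genes that reached 1 FPKM in the gene table BM column and in the transcript table FL sums, the former was a constant multiple of the latter to within 10%, so the gene table BM column served as a check of transcript table FL. Values of one origin thus appear to stand under BM in one table and under FL in the other, so at least 1 header is in doubt. Which column is fetal and which adult, and with it the biological direction of every ratio of BM over FL given here, is therefore uncertain. In the transcript table all 12 HSC identity markers were expressed in FL and in BM, from 6.62 FPKM upwards in FL and from 12.6 FPKM upwards in BM. Marker genes of other cells also moved between these columns. The 12 erythroid markers summed to 868 (FL) and 54.7 FPKM (BM), the neutrophil and monocyte markers to 526 and 97.4 FPKM, the macrophage markers to 223 and 6.54 FPKM and the megakaryocyte markers to 137 and 794 FPKM. Most of the erythroid FL sum came from Hba-a1, Hba-a2, Hbb-bt and Hbb-bs, whose FL values did not match the gene table BM column. The erythroid sum in that column was 440 FPKM. All 12 erythroid markers were at least 2-fold lower in transcript table BM than in either column. Alas2 (erythroid) and Timd4 (macrophage) were listed at 0 in BM. Hepatocyte markers summed to 41.6 (FL) and 13.3 FPKM (BM), and 5 of the 6 expressed ones were at least 2-fold lower in BM. Among them Alb was at 6.46 (FL) and 0.0190 FPKM (BM). In the gene table the hepatocyte sums were 55.6 (FL) and 42.6 FPKM (BM). The part of these cell types in the values below was not tested, and fewer cells of a type cannot be told apart from less RNA per cell.

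Promoter sequence was found for 7 of the 8 genes in the RefSeq table of build GRCm38.p6, which holds the 250 bases before and 50 after each gene's start; Foxo4 had no entry. These windows were searched on both strands for the FOXO binding motif TGTTTAC, its variant TGTTTTC and the E-box CACGTG. Only exact matches were sought, so E-box elements that differ from CACGTG in any base were not marked. Txnip and Pik3ip1 are shown because they had the largest differences between columns, and the capitals mark the only match among the 7 windows, the reverse complement of TGTTTAC.

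Txnip, chr3:96557707-96558006, plus strand: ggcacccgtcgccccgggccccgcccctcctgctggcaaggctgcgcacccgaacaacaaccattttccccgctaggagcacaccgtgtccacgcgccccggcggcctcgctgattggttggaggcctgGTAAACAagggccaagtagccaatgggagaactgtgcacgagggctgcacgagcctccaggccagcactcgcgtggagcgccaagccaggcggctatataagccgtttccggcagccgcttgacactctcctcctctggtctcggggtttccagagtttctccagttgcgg
Pik3ip1, chr11:3330481-3330780, plus strand: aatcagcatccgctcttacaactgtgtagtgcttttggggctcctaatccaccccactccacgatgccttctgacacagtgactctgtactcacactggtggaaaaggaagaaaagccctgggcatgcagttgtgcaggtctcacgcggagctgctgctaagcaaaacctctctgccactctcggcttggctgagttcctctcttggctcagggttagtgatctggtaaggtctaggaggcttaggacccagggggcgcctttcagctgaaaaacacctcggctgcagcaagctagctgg

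The match in Txnip begins 121 bases before the annotated start. TGTTTAC, read on both strands, occurred in 3.65% of all 32851 promoter windows, TGTTTTC in 7.35% and CACGTG in 7.15%. A match to 7 letters is a description of the sequence and does not show that a FOXO protein binds there.

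Between the columns of the transcript table, the FOXO genes and most brakes were at like levels, and Pik3ip1 and Txnip were higher in BM. Levels were the sum of all linked transcripts of a gene, and the relative log2 ratio was log2((BM + 0.1) / (FL + 0.1)) minus its median over all genes that reached 1 FPKM in FL and in BM, a shift of 0.01. On this scale 2 of 8 genes were at least 2-fold higher in BM, none was at least 2-fold lower, and 6 were within 2-fold. Among all expressed genes 13.3% were higher by this rule and 8.82% lower. The median over the 8 genes was 0.25, beside 0.02 over all expressed genes.

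**Figure D1:**
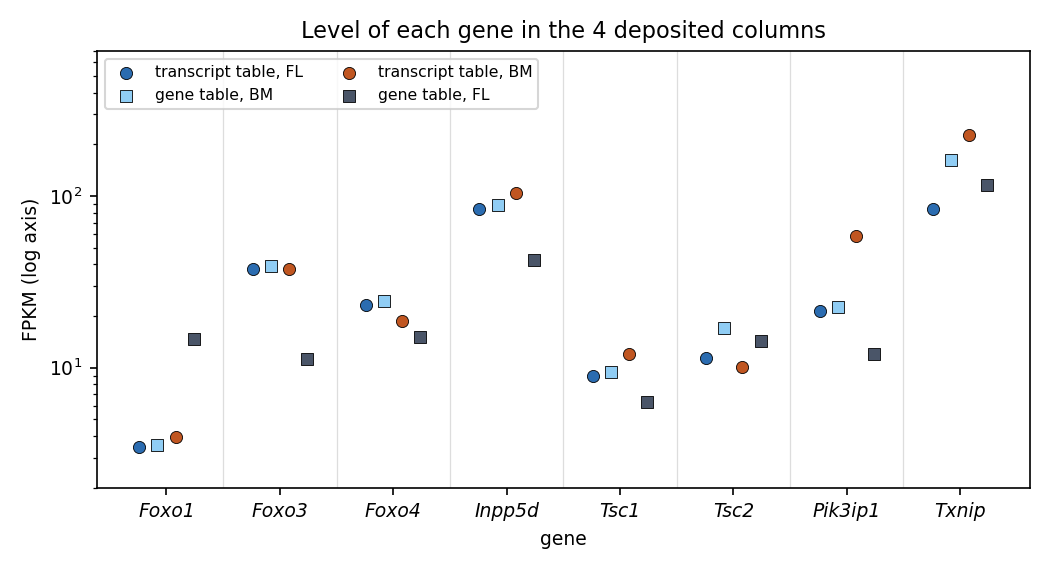
Level of each gene in FPKM (vertical log axis) in the FL and BM columns of the transcript table (circles, summed transcripts) and of the gene table (squares); each point is 1 deposited value without error. The gene table BM square lies close to the transcript table FL circle for 6 genes and above it for Tsc2 and Txnip, and Foxo1 is highest in the gene table FL column.

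FOXO factors were led by Foxo3, the family member most often tied to HSC maintenance. Foxo3 was at 37.7 (FL) and 37.7 FPKM (BM) of the transcript table, a relative log2 ratio of 0.00. Foxo4 was at 23.2 (FL) and 18.7 FPKM (BM), a ratio of -0.31. Foxo1, which is also a regulator of lymphocytes and of endothelium, was at 3.44 (FL) and 3.97 FPKM (BM), a ratio of 0.20. None of the FOXO genes thus reached 2-fold in either direction. The fourth family member, Foxo6, was under the expression threshold, at 0.0140 (FL) and 0.0113 FPKM (BM). Foxo3 took 58.6% of the summed FPKM of Foxo1, Foxo3 and Foxo4 in FL and 62.4% in BM, Foxo4 took 36.0% and 31.0%, and Foxo1 took 5.34% and 6.56%. The order Foxo3, Foxo4, Foxo1 was the same in both columns, and Foxo3 exceeded Foxo1 by 11.0-fold in FL and 9.52-fold in BM.

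In the gene table, the BM column gave Foxo1, Foxo3 and Foxo4 at 3.57, 39.2 and 24.6 FPKM, each within 10% of the constant multiple of the transcript table FL sums. The gene table FL column differed from the other columns in its FOXO makeup. There Foxo1 was at 14.8 FPKM, Foxo3 at 11.2 FPKM and Foxo4 at 15.2 FPKM, so that Foxo1 took 35.9% of the FOXO sum and Foxo3 27.2%. Relative to the gene table BM column, Foxo1 was higher in FL by 2.26 on the log2 scale and Foxo3 lower at -1.56. Over all expressed genes of that table, 23.6% were higher in FL by 2-fold or more and 12.3% lower, and Foxo1 and Foxo3 were the members past 2-fold. All 9 endothelial markers stood high in the same column, from 39.7 to 649 FPKM with a sum of 3032 FPKM, beside a sum of 291 FPKM in the gene table BM column. Among them were the cadherin gene Cdh5 at 457 and 7.97 FPKM and Plvap at 599 and 7.54 FPKM. Stromal markers summed to 788 FPKM in that column and 11.8 FPKM in the gene table BM column, and macrophage markers to 711 and 235 FPKM. Erythroid markers were by their sums the other way round, at 131 and 440 FPKM, as were neutrophil and monocyte markers, with 39.5 and 567 FPKM. Not every gene followed its sum. Macrophage markers Marco (0.372 and 28.4 FPKM), Vcam1 (2.19 and 11.0 FPKM) and Timd4 (2.46 and 6.46 FPKM) were lower in FL. Erythroid markers Hba-a1 (58.1 and 41.9 FPKM), Hba-a2 (27.3 and 10.1 FPKM) and Alas2 (2.10 and 1.31 FPKM) were higher in FL. The other markers of both lists went with their sums. The part of any of these cell types in the Foxo1 and Foxo3 values was not tested.

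Lipid and kinase brakes came next in the order of the pathway. Inpp5d encodes SHIP1, a phosphatase of blood cells that removes PIP3. It was at 83.4 (FL) and 104 FPKM (BM), a ratio of 0.31, and by this sum stood above 90.6% of expressed genes in FL and 94.1% in BM. A short transcript annotated as retaining an intron made up 53.9% (FL) and 61.8% (BM) of the sum. Pik3ip1 encodes a membrane protein that binds the catalytic subunit of PI3K and inhibits it. Pik3ip1 was at 21.3 (FL) and 58.2 FPKM (BM), a relative log2 ratio of 1.44 or 2.71-fold, and 7.64% of expressed genes (933) had a ratio at least as high. It moved from above 64.7% of expressed genes in FL to above 87.8% in BM. The gene table BM value of Pik3ip1, 22.4 FPKM, was within 10% of the constant multiple of the FL sum, and with that value in place of FL the ratio was 1.49. By summed transcripts, Inpp5d exceeded Pik3ip1 by 3.91-fold in FL and by 1.79-fold in BM. Over coding transcripts alone, Inpp5d was still above Pik3ip1 in FL. In BM it was then below, with Inpp5d at 39.4 FPKM and Pik3ip1 at 51.7 FPKM.

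Tsc1 and Tsc2 encode the partners of the complex that switches off the GTPase Rheb and thereby mTOR. Tsc1 was at 8.92 (FL) and 12.0 FPKM (BM), a ratio of 0.41. Tsc2 was at 11.5 (FL) and 10.1 FPKM (BM), a ratio of -0.19. Tsc2 was thus above Tsc1 in FL, by 1.29-fold, and below it in BM, at 0.843-fold. Over coding transcripts alone, Tsc1 was at 7.92 (FL) and 8.40 FPKM (BM), below Tsc2 in each column. The Tsc2 sum rested on 1 of 22 annotated transcripts, and the gene table BM column had 17.0 FPKM, 1.48-fold above the FL sum. The order of Tsc1 and Tsc2 in BM may therefore not hold for the whole genes.

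Txnip encodes an arrestin-like protein that binds thioredoxin, limits glucose uptake and is needed for HSC quiescence in mice. It was the most abundant of the 8 genes in every column. Txnip was at 84.4 (FL) and 227 FPKM (BM) of the transcript table, a ratio of 1.42 or 2.68-fold, with 7.76% of expressed genes (948) at least as high. The gene table BM column, however, had Txnip at 161 FPKM, 1.91-fold above the FL sum, where the FL sums of the FOXO genes, Inpp5d, Tsc1 and Pik3ip1 were exceeded by 1.04-fold to 1.06-fold. With that value in place of FL, the ratio was 0.62 or 1.53-fold, and Txnip was no longer among the higher genes. Of 12058 expressed genes in both tables, 14.8% were higher by 2-fold or more in this cross-table comparison and 11.5% lower, and among the 8 genes Pik3ip1 alone was higher and none was lower. The linked transcripts of Txnip may therefore not cover the whole gene, what they leave out in BM is not known, and the size of the Txnip ratio is uncertain.

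**Figure D2:**
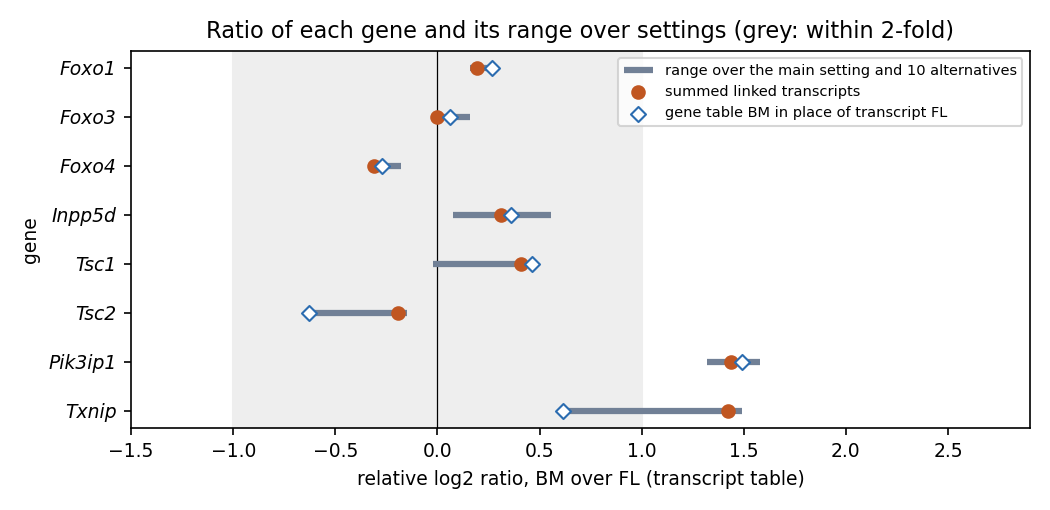
Relative log2 ratio of BM over FL (horizontal axis) for each gene: filled circles, summed linked transcripts; diamonds, the gene table BM column in place of transcript table FL; grey lines, the range over the main setting and 10 alternatives. Pik3ip1 lies outside the grey 2-fold band under every setting drawn, from 1.32 to 1.58, and Txnip spans 0.62 to 1.49.

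By summed transcripts, the order of the 8 genes from high to low in FL was Txnip, Inpp5d, Foxo3, Foxo4, Pik3ip1, Tsc2, Tsc1, Foxo1. In BM it was Txnip, Inpp5d, Pik3ip1, Foxo3, Foxo4, Tsc1, Tsc2, Foxo1. Over coding transcripts alone the FL order was the same. In BM, however, Pik3ip1 (51.7 FPKM) then stood above Inpp5d (39.4 FPKM), and Tsc2 (10.1 FPKM) above Tsc1 (8.40 FPKM). Pik3ip1 stood below Foxo3 and Foxo4 in FL and above both in BM. Without replicates it cannot be said which neighbours differ beyond their spread. The gene table BM column had the FL order. The range from Foxo1 to Txnip was 24.6-fold in FL and 57.4-fold in BM.

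Single transcripts were then compared, since isoforms of these genes differ in what they encode. Of 69 transcripts annotated for the 8 genes, 45 were in the table and 28 were at 1 FPKM or more in either column. Of these 28, 12 were higher in BM by 2-fold or more and 2 were lower, where 23.2% of all 26533 transcripts at that level were higher and 14.7% lower. Isoform values are model estimates without an error. Among the 19 coding transcripts 6 were higher and 1 was lower, where 16.7% of all 18161 coding transcripts at that level were higher and 13.8% lower. The 12 higher transcripts came from Pik3ip1, Txnip and Tsc1 alone, and the 6 coding ones from Pik3ip1 and Txnip alone. Most of the 12 reached 1 FPKM in BM only, and the 2 lower ones in FL only, which favours such calls. Isoforms of a gene are not independent, so these counts do not describe the 8 genes as a set.

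Pik3ip1 and Txnip were higher through their main coding transcripts. Pik3ip1-201 was at 13.9 (FL) and 40.6 FPKM (BM), and made up 65.0% of the gene's sum in FL and 69.8% in BM. The second coding transcript, Pik3ip1-205, was at 5.60 and 5.63 FPKM, and its share went from 26.3% to 9.68%. Txnip-201 was at 60.3 (FL) and 165 FPKM (BM), and Txnip-202 at 23.2 and 46.6 FPKM. The coding transcripts of Txnip together reached 83.4 (FL) and 212 FPKM (BM), and the ratio of Pik3ip1 over coding transcripts alone was 1.32.

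Transcripts annotated as retaining an intron, which are usually not translated, were higher in BM for 5 of the 6 members' transcripts at 1 FPKM or more. This share has to be read against a high background, since 47.8% of all 3352 such transcripts were at least 2-fold higher in BM. All 5 were under 1 FPKM in FL and passed that level through BM alone, which favours their being counted as higher. The remaining one, Inpp5d-203, was at 44.9 FPKM in FL and was within 2-fold. Txnip-205 was at 0.0143 (FL) and 10.4 FPKM (BM), and Txnip-203 at 0.117 and 4.20 FPKM. Tsc1-206 was at 0.426 and 1.64 FPKM and Tsc1-210 at 0.0769 and 1.35 FPKM. Pik3ip1-209 was under 1 FPKM in FL, at 4.81e-08 FPKM, and at 2.15 FPKM in BM. The retained intron share of the Tsc1 sum was 5.64% in FL and 25.2% in BM, while its coding transcripts summed to 7.92 and 8.40 FPKM. The Tsc1 ratio of 0.41 was accordingly 0.11 over coding transcripts alone.

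Inpp5d showed the largest retained intron share. Inpp5d-203, a transcript of 364 nt, was at 44.9 (FL) and 64.3 FPKM (BM), or 53.9% and 61.8% of the gene's sum. Weighted by full annotated length, it took 8.74% in FL and 11.3% in BM. These are not exact shares of fragments, since the length by which the deposited FPKM were divided is not known. For so short a transcript that length matters most. Coding transcripts of Inpp5d summed to 37.9 (FL) and 39.4 FPKM (BM), a ratio of 0.08. Among them Inpp5d-210 was at 11.8 and 19.4 FPKM, Inpp5d-209 at 13.8 and 9.97 FPKM, Inpp5d-201 at 11.0 and 9.97 FPKM, and Inpp5d-208 at 1.31 (FL) and 7.31e-05 FPKM (BM). Inpp5d-208 was the coding transcript counted as lower.

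Isoforms of the FOXO genes kept their order. Foxo3-203 was at 29.5 (FL) and 32.0 FPKM (BM), with 78.2% and 84.9% of the sum, ahead of Foxo3-202 at 6.17 and 3.42 FPKM and Foxo3-201 at 2.03 and 2.29 FPKM. Foxo4-201 held 93.2% of its gene's sum in FL and 99.3% in BM. The non-coding Foxo4-203 was at 1.52 (FL) and 0.10 FPKM (BM), the other transcript counted as lower. Foxo1-201 and Tsc2-201 were the single linked transcripts of their genes.

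**Figure D3:**
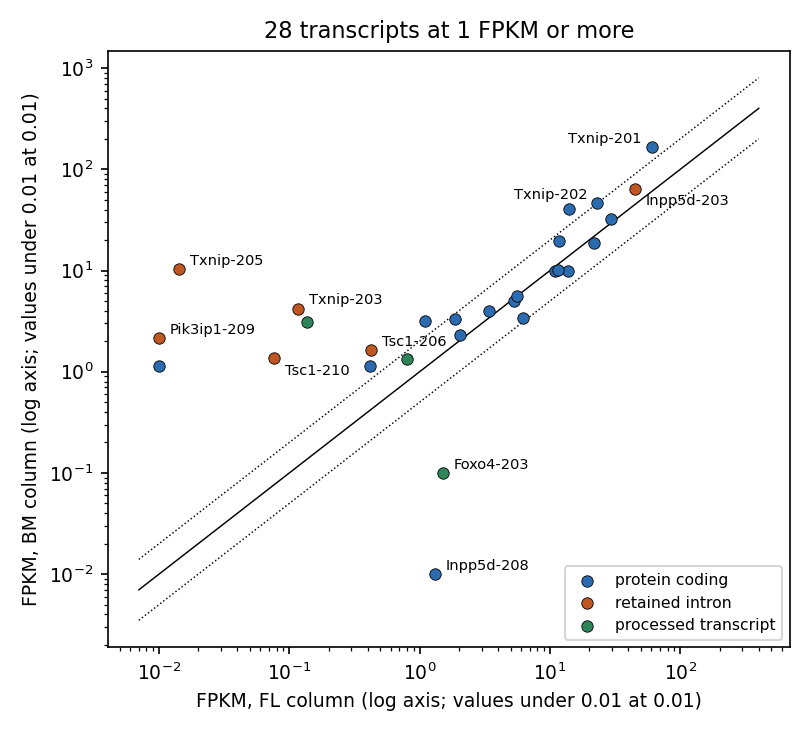
FPKM in the BM column (vertical log axis) against FPKM in the FL column (horizontal log axis) of the 28 transcripts at 1 FPKM or more in either, coloured by annotated type; the solid line marks equal values, dotted lines 2-fold, and values under 0.01 are drawn at 0.01. Retained intron transcripts of Txnip, Tsc1 and Pik3ip1 lie above the upper dotted line, whereas Inpp5d-203 lies within 2-fold.

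Other genes of the pathway were described from 8 further lists, by counts and medians beside the 13.3% and 8.82% of all expressed genes. Regulators and partners of FOXO (kinases, adaptors, acetylation and ubiquitin enzymes, an exportin and other forkhead factors among them) had 1 of 23 expressed members higher in BM and 2 lower, with a median of -0.12. Sgk1, an AKT-related kinase, was lower at 3.72 (FL) and 1.63 FPKM (BM), as was Skp2, a ubiquitin ligase subunit that targets FOXO1 and cell cycle inhibitors, at 21.8 and 8.81 FPKM. Akt1 and Akt2, named here after their values were seen, were within 2-fold, Akt1 at 120 (FL) and 109 FPKM (BM) and Akt2 at 47.0 (FL) and 59.1 FPKM (BM).

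Genes known as FOXO targets in other settings had 7 of 31 expressed members higher and 1 lower, with a median of 0.28. The higher genes included Pdk4, an inhibitor of glucose oxidation, at 0.107 and 1.65 FPKM, the transcription factor gene Klf2 at 1.45 and 7.39 FPKM, the death ligand gene Tnfsf10 at 3.09 and 11.5 FPKM and Rbl2, whose product is a retinoblastoma-like pocket protein, at 9.82 and 27.1 FPKM. Pdk4 was called expressed through BM alone, the column where it was high, which favours its being counted as higher. Other established targets stayed within 2-fold, among them the peroxidase gene Prdx3 at 106 and 65.6 FPKM, the autophagy gene Gabarapl1 at 110 and 164 FPKM and Cited2, a regulator of HSC maintenance, at 48.8 and 96.1 FPKM. Many of these genes also respond to other factors, and the list was written with earlier results on these columns known.

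Upstream of PI3K, receptors and adaptors had 0 of 14 expressed members higher and 2 lower, with a median of -0.18. Kit, the stem cell factor receptor gene, was at 112 (FL) and 181 FPKM (BM), within 2-fold. The lower genes were the macrophage receptor gene Csf1r, at 17.8 and 0.0779 FPKM, and Igf2r, which clears IGF2, at 13.0 and 6.41 FPKM. Csf1r was called expressed through FL alone and also belongs to the macrophage markers, of which all 10 were lower. Class I PI3K subunits had 0 of 9 expressed members higher and 1 lower, with a median of 0.10. The catalytic subunit genes Pik3cd (40.7 and 43.7 FPKM), Pik3cg (18.9 and 22.8 FPKM) and Pik3ca (7.11 and 10.6 FPKM) and the regulatory subunit gene Pik3r1 (35.2 and 39.8 FPKM) were within 2-fold. Pik3r6, a regulatory subunit gene of the Pik3cg enzyme, was at 4.87 (FL) and 0.477 FPKM (BM), and so was called expressed through FL alone.

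Brakes outside the 8 genes were mostly at like levels: 14 of 18 expressed members were within 2-fold, 2 were higher in BM and 2 lower (median 0.12), shares near those of all expressed genes. Inpp4b, a phosphatase gene of the same pathway, was counted as higher at 1.42 (FL) and 3.45 FPKM (BM), but was at 3.84 FPKM in the gene table BM column, with a cross-table ratio of -0.03. Lower in BM were the adaptor genes Dok2, at 107 and 47.5 FPKM, and Sh2b3, which encodes the cytokine signalling inhibitor LNK, at 38.3 and 18.4 FPKM. Ptpn6, the phosphatase gene known as Shp1, was within 2-fold at 151 and 96.5 FPKM.

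Downstream, genes that restrain mTOR had 4 of 23 expressed members higher and 1 lower, with a median of -0.02. The higher genes were Ddit4, an activator of the TSC complex, at 7.18 and 16.4 FPKM, Deptor, an mTOR-binding inhibitor gene, at 3.22 and 8.17 FPKM, Sesn3, a sestrin gene, at 4.25 and 9.76 FPKM, and the AMPK subunit gene Prkaa2 at 0.0816 and 1.62 FPKM. Prkaa2 was called expressed through BM alone, which favours its being counted as higher. Ddit4 and Sesn3 were also counted among the higher FOXO targets, so the counts of these lists are not separate. Another AMPK subunit gene, Prkab1, was lower at 70.2 and 31.8 FPKM. Stk11, which encodes the AMPK-activating kinase LKB1, was at 86.6 and 83.5 FPKM. The mTOR complexes and their outputs had 0 of 22 expressed members higher and 1 lower, Prr5, at 11.4 and 3.95 FPKM, with a median of -0.17. Rictor, the scaffold gene of the mTOR complex that phosphorylates AKT, was at 3.66 and 7.34 FPKM, and Rptor, that of the growth-controlling complex, at 19.4 and 11.0 FPKM; both were within 2-fold. Over the relatives and partners of Txnip, 0 of 14 expressed members were higher and 2 were lower, with a median of 0.02. The thioredoxin gene Txn1 was at 262 and 221 FPKM and the arrestin gene Arrdc1 at 35.8 and 59.2 FPKM, within 2-fold. The lower genes were the glucose transporter gene Slc2a1, whose protein Txnip acts on, at 42.0 and 18.1 FPKM, and the thioredoxin reductase gene Txnrd2 at 46.5 and 20.2 FPKM.

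**Figure D4:**
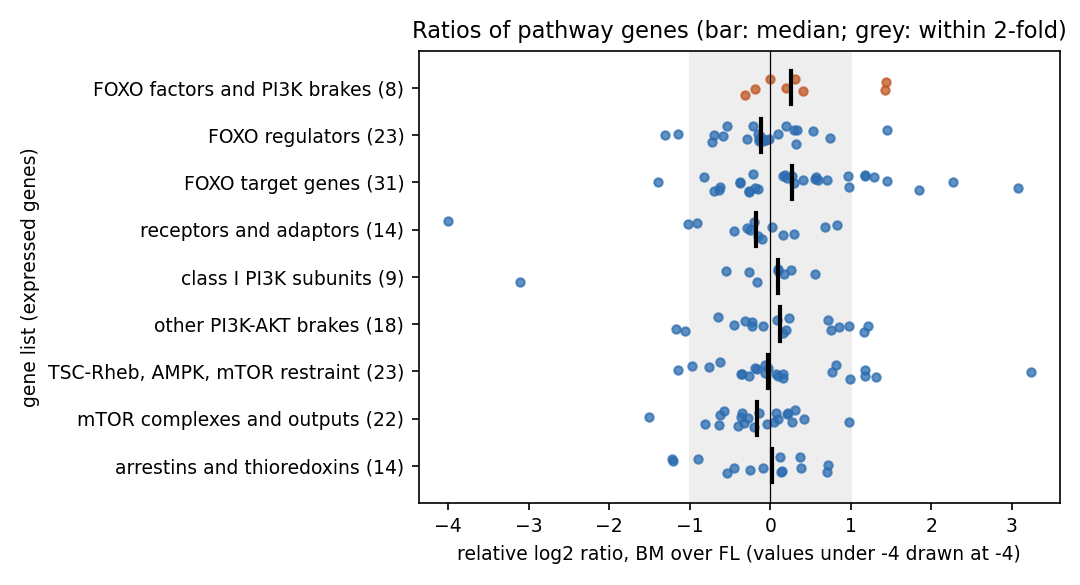
Relative log2 ratio of BM over FL (horizontal axis) for each expressed gene of the 8 genes (orange) and of the other pathway lists (blue), with the number of expressed genes in brackets; black bars are list medians, and vertical scatter within a row has no meaning. Medians lie between -0.18 and 0.28, and most genes fall in the grey 2-fold band.

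Genes with the most similar pattern were sought by Euclidean distance of log2(FPKM + 0.1) over 3 columns (transcript table FL and BM, gene table FL), among 12057 other expressed genes. Pik3ip1 was nearest to Ifi27 (18.9 (FL) and 64.1 FPKM (BM), distance 0.24), and Txnip to Fxyd5 (104 and 209 FPKM, distance 0.51) and H2-D1 (62.6 and 287 FPKM, distance 0.56). Foxo3 was nearest to Ring1 (36.0 and 39.6 FPKM, distance 0.10), Foxo4 to Bcl7a (22.5 and 18.5 FPKM, distance 0.05) and Foxo1 to Spry1 (3.70 and 3.95 FPKM, distance 0.12). Inpp5d was nearest to Stag2 (83.2 and 114 FPKM, distance 0.13), Tsc1 to Etfbkmt (9.06 and 12.3 FPKM, distance 0.06) and Tsc2 to Galnt10 (11.3 and 9.97 FPKM, distance 0.04). With 3 columns, such likeness covers level as much as pattern.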

How the data were processed

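The authors deposited FPKM values for mouse HSCs in 2 tables, of 37820 genes and of 87641 transcripts, each with 1 FL and 1 BM column. Mouse build mm9, TopHat, Cufflinks and featureCounts are named in the submitters' processing notes without roles or versions; which gene annotation was used is not given in sources used here. Each column was read as the authors' group value. BM was assigned by its header to the adult group (2 samples) and FL to fetal liver from the protocol alone; since the gene table BM column matches transcript table FL, the headers cannot both hold and the assignment is uncertain. No test, SD or paired comparison was made, since columns hold 1 value, and depth is unknown.

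Transcripts were linked by identifier to genes, types and lengths of GENCODE M21, a later build (GRCm38); 76507 were linked, and unlinked ones held 10.4% of FPKM in FL and 10.9% in BM. Python 3.11.15, numpy 2.4.6, pandas 2.3.3 and matplotlib 3.10.9 were used, and the ratio calculation was tested on simulated data. The 8 genes, 9 pathway lists (1 of them the FOXO family) and 9 marker lists were chosen with earlier results of these data known. Genes were named by rule: the 8 genes and their transcripts at 1 FPKM or more, per list the 4 with the most extreme ratios and the 3 most abundant, and the 2 nearest genes in pattern. The search of RefSeq proteins planned for the FOXO genes and Tsc2 was not made, since no protein sequence was used here. A few genes counted in the lists are not reported here by name.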

Additional observations from a re-analysis of the deposited data

How the results depend on the processing

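The ratios of the 8 genes were recomputed under 8 alternatives fixed at the start and 2 chosen after seeing the data. Those fixed at the start were pseudocounts of 0.01 and 1, an expression threshold of 0.5 FPKM or none, no centring and upper-quartile scaling. They also included the highest transcript only, and the gene table BM column in place of transcript table FL. The 2 chosen later were sums weighted by annotated length and coding transcripts only. Changing the expression threshold left all 8 ratios as they were, since every one of these genes exceeded 1 FPKM in each column. No centring and upper-quartile scaling shifted all 8 by nearly the same small amount. These alternatives therefore say little about stability. Of 80 recomputed ratios, these included, 79 moved by less than 1.5-fold. The exception was Txnip, at 0.62 with the gene table BM column in place of FL, where the number of genes at least 2-fold higher was 1 in place of 2. The FL sum of Txnip was below its gene table BM value, and the cause was not tested. No gene was at least 2-fold lower under any of the 10 alternatives. Small ratios did not all keep their sign or size. Tsc1 ranged from -0.02 to 0.46, Foxo3 from -0.01 to 0.16, Inpp5d from 0.08 to 0.56 and Tsc2 from -0.63 to -0.15. Shares of the dominant transcripts changed by at most 0.514 percentage points without transcripts under 0.1 FPKM. No paired analysis was possible because the columns carry no replicate numbers, and for the same reason no replicate could be left out. Depth is unknown, so no interval can be given for low values such as those of Foxo1 or of short transcripts.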
